A study of Zea mays with 9 samples.

Results

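The comparison described here set nitrate-supplied against nitrogen-deprived root apices of maize seedlings, gene by gene across the nuclear genome. A gene entered when its deposited RPKM (reads per kilobase of transcript, scaled to the reads of the library) was at least 1 in NO3- or in -N, and 21238 of the 45260 genes of the deposited table met this rule. The table holds 45043 nuclear genes, of which 23805 stayed under 1 in both conditions, and 217 organelle genes, which were left out. All seedlings were of the inbred line B73, germinated in the dark for 3 days and kept in a nitrogen-free solution before the treatment. The -N group then spent 24 h without nitrogen, and the NO3- group spent 24 h with 1 mM KNO3. The treatment text common to all samples also names 1 mM NH4Cl, which the title and treatment label of no sample carries and whose use was not settled here. Each group comprised 3 libraries of poly(A) RNA, each made from the pooled primary root apices of many seedlings. The remaining group of the study, which received the nitric oxide scavenger cPTIO together with nitrate, was not used. The table gives a single pooled value per gene and condition, so no difference below was checked across replicates here. No test was possible, and every ratio describes these values only. The study itself tested this comparison on its libraries, with a limit on the false discovery rate besides the fold. That test was not repeated, and the counts below rest on the fold alone.

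Plant roots take up nitrate through transporters of the NRT families and reduce it in the cytosol to nitrite by nitrate reductase. Nitrite enters the plastid, where nitrite reductase, an enzyme that carries a siroheme group and takes its electrons from ferredoxin, turns it into ammonium for amino acid synthesis. Genes of this path are known as fast nitrate-induced genes in many plants. The apex of the root holds the root cap, the meristem and the zone where cells start to elongate, so its cell wall enzymes and peroxidases are those of growing and maturing cells.

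The number of reads behind each value is unknown from the files, and no counting interval could be given. In these bulk samples, fewer cells of a type and less RNA per cell cannot be told apart. Of the 17 genes that the study names by identifier, MEP (Zm00001d018359), a membrane protein gene used there as the reference for qRT-PCR, had an RPKM of 229 in -N and 230 in NO3-. The median log2 ratio of NO3- to -N was 0.04 over the 21096 members with a value above 0 in both conditions. Rescaling NO3- to the same median ratio, upper quartile or summed RPKM shifted every log2 ratio by at most 0.05.

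More genes lay higher than lower with nitrate. A ratio over 2-fold was found for 1111 members in the direction of NO3- (5.23% of members) and for 539 in the direction of -N (2.54%), together 1650 or 7.77%. Within these, 86 of the higher genes were listed at 0 in -N and 56 of the lower ones at 0 in NO3-, and no fold is given for them. The central 95% of the finite log2 ratios ran from -0.94 to 1.39, and the middle quartiles from -0.15 to 0.28. Past 4-fold were 298 higher and 165 lower genes, and past 8-fold 149 and 81. Genes past 2-fold had low median levels in both directions. The median RPKM of the higher genes was 1.03 in -N and 3.55 in NO3-, and that of the lower genes 4.52 and 1.23. The genes within 2-fold had medians of 12.9 and 13.2. Counted by summed RPKM, the lower genes took 2.42% of the total of the members in -N and 0.814% in NO3-, and the higher genes 0.541% and 1.53%. The summed RPKM of the lower genes went from 21312 to 7416, a loss of 13897, and that of the higher genes from 4774 to 13920, a gain of 9146. ENSRNA049478180 and Zm00001d023994 carried 6543 of this loss, and without them it was 7353, under the gain.

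**Figure D1:**
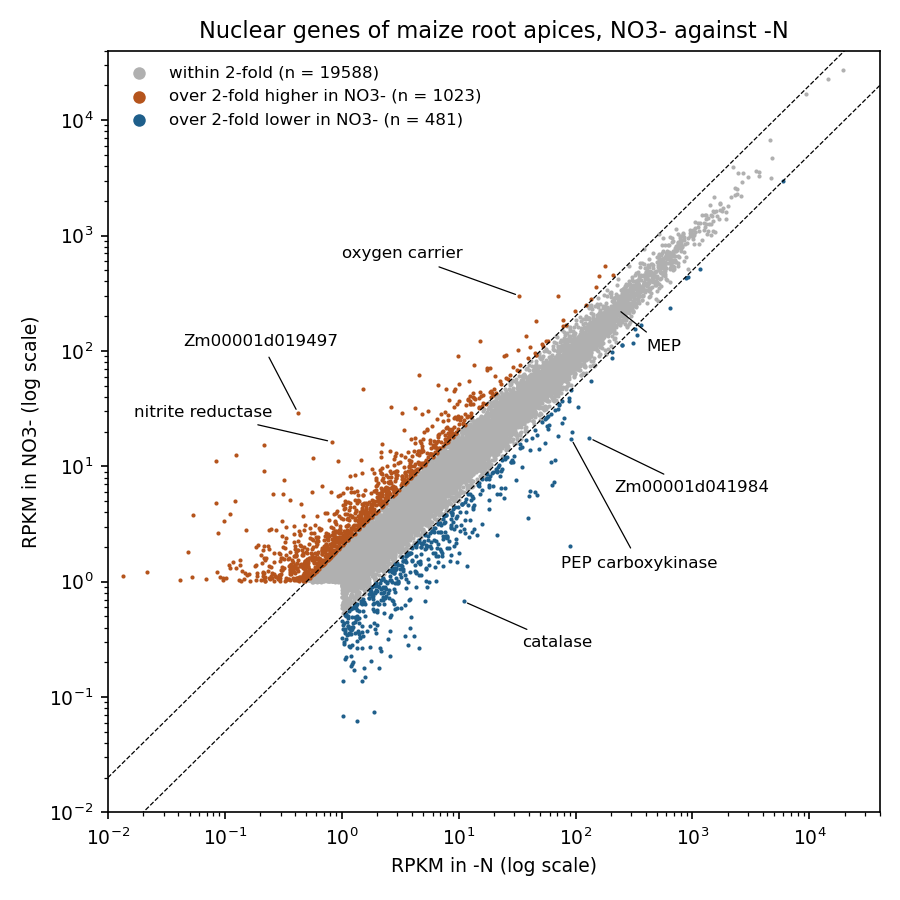
RPKM of each nuclear gene in -N (horizontal axis) and NO3- (vertical axis), both on log scales, with dashed lines at 2-fold. The 142 members listed at 0 in one condition and 4 with a value under 0.01 are not drawn, which leaves 1023 genes above the upper line and 481 below the lower one, and MEP lies between the lines at 229 and 230.

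The ratio depended on the level. Among the 606 members with a mean RPKM of the 2 conditions under 1, 37.0% were over 2-fold higher and 15.2% over 2-fold lower, and the central 95% of log2 ratios spanned -2.34 to 3.40. Each gene of this lowest class reached 1 RPKM in 1 condition only, so a large ratio there is partly set by the rule. Between 2 and 5 RPKM the shares were 8.07% and 4.30%. Between 10 and 50 RPKM, the class with the most members (8375), they were 1.77% and 0.967%, with a central 95% from -0.61 to 0.83. Over 100 RPKM, 13 of 1547 genes were higher and 14 lower. The excess of higher over lower genes shrank along the same scale, since 70.9% of the genes past 2-fold were higher in the lowest class and 48.1% in the highest. The median log2 ratio went from 0.68 in the lowest class to 0.00 in the highest.

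**Figure D2:**
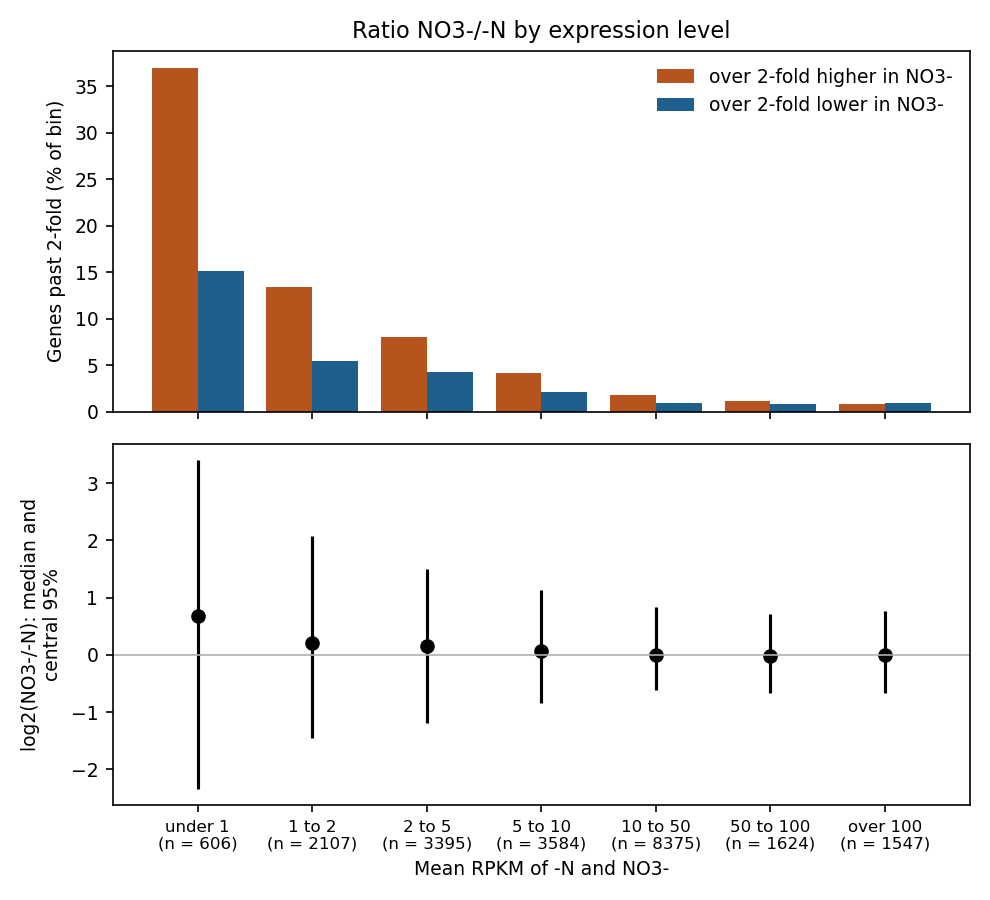
Members grouped by the mean RPKM of -N and NO3-, with the share past 2-fold in each direction as bars (upper panel) and the median and central 95% of the finite log2 ratios as points and lines (lower panel). The share past 2-fold runs from 52.1% under 1 RPKM to 1.75% over 100 RPKM.

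Around the limit of 1 RPKM, members and excluded genes looked alike. Of the 309 members whose larger value lay between 1 and 1.1, 27.8% were past 2-fold, and of the 327 excluded genes with a larger value between 0.9 and 1, 24.5% were. Near the 2-fold limit, 134 higher and 43 lower genes had a ratio between 2 and 2.1, and 138 and 64 genes lay between 1.9 and 2.

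Function could be read for part of the genes only. The identifiers of the table carry no names, and roles were taken from the KEGG and GO memberships that the study listed for genes it had selected in its own comparisons, including this one. Each annotated gene therefore lies past 2-fold by choice, and its direction is not independent evidence. Of the 181 genes with a KEGG entry, 175 were members, 83 higher and 92 lower. None was within 2-fold, so their median log2 ratio of -1.06 reflects only which side held more genes. It cannot be compared with the median of 0.04 over all members. Entries with at least 2 members numbered 24, of which 9 had all their genes higher, 8 all lower and 7 in both directions.

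The nitrate reduction path was higher with nitrate at each annotated step. Ferredoxin-dependent nitrite reductase (Zm00001d018161, chromosome 5, 215727084 to 215730071) had an RPKM of 0.820 in -N and 16.3 in NO3-, a ratio of 19.9. The nitrate reductase gene Zm00001d018206 lies under 1 Mb further along the same chromosome (216589277 to 216592402), and its RPKM was 1.44 in -N and 4.06 in NO3-. The other nitrate reductase gene, Zm00001d049995 on chromosome 4, stood at 0.291 and 1.77. Nitrite reductase was thus the step with the largest ratio and the highest level in NO3- of the 3 genes.

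Genes that serve this step followed the same direction. Ferredoxin Zm00001d038291, the electron donor type, had 10.1 RPKM in -N and 37.2 in NO3-, and ferredoxin-NADP reductase Zm00001d034345, which recharges ferredoxin with electrons from NADPH in root plastids, had 52.3 and 110. Both siroheme synthesis genes were higher as well, in a GO term that the study listed for genes higher with nitrate. Zm00001d044138, a uroporphyrinogen-III methyltransferase, was at 8.14 in -N and 25.0 in NO3-, and Zm00001d011428 at 0.919 and 2.35. Adenylyl-sulphate kinase 3 (Zm00001d048785), an enzyme of sulphate activation, had 1.53 and 5.59. Carbonic anhydrase Zm00001d044096, listed by KEGG under nitrogen metabolism, had 3.78 and 9.91.

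Transport of nitrogen was lower with nitrate where it was annotated. The NRT-type nitrate transporter Zm00001d011679 on chromosome 8 had an RPKM of 1.93 in -N and 0.385 in NO3-, opposite to the reductases. The 3 genes of the GO term ammonium transport were lower too. Zm00001d034782 and Zm00001d025831 had similar levels in -N, 8.57 and 8.72, and differed in the remaining level, 2.95 and 3.91. Zm00001d017249 had the lowest ratio of the 3, from 2.81 to 0.645. All 18 genes of the wider term transmembrane transport were lower, with log2 ratios from -2.44 to -1.03 and a summed RPKM of 307 in -N and 122 in NO3-. Zm00001d028164 (76.0 and 37.1) and Zm00001d003861 (57.8 and 21.2) were the most abundant of the 18, and Zm00001d034706 (3.87 and 0.713) had the lowest ratio. Both GO terms were listed by the study for a class of genes lower with nitrate, so these counts have no other possible outcome.

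Both annotated oxygen carriers were higher with nitrate. Zm00001d048020 (chromosome 9, 148178266 to 148179408), in the GO term that holds the plant haemoglobins, had an RPKM of 33.1 in -N and 300.5 in NO3-. The second gene of the term, Zm00001d038718 on chromosome 6, stood at 0.313 and 5.72, a ratio of 18.3 at a far lower level. The study listed this term for a class of genes higher with nitrate, so the direction of both was set by that choice. Plant haemoglobins of the non-symbiotic kind bind oxygen tightly and can turn nitric oxide into nitrate. Among the 1547 members with a mean over 100 RPKM, Zm00001d048020 had the highest ratio, 9.07.

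**Figure D3:**
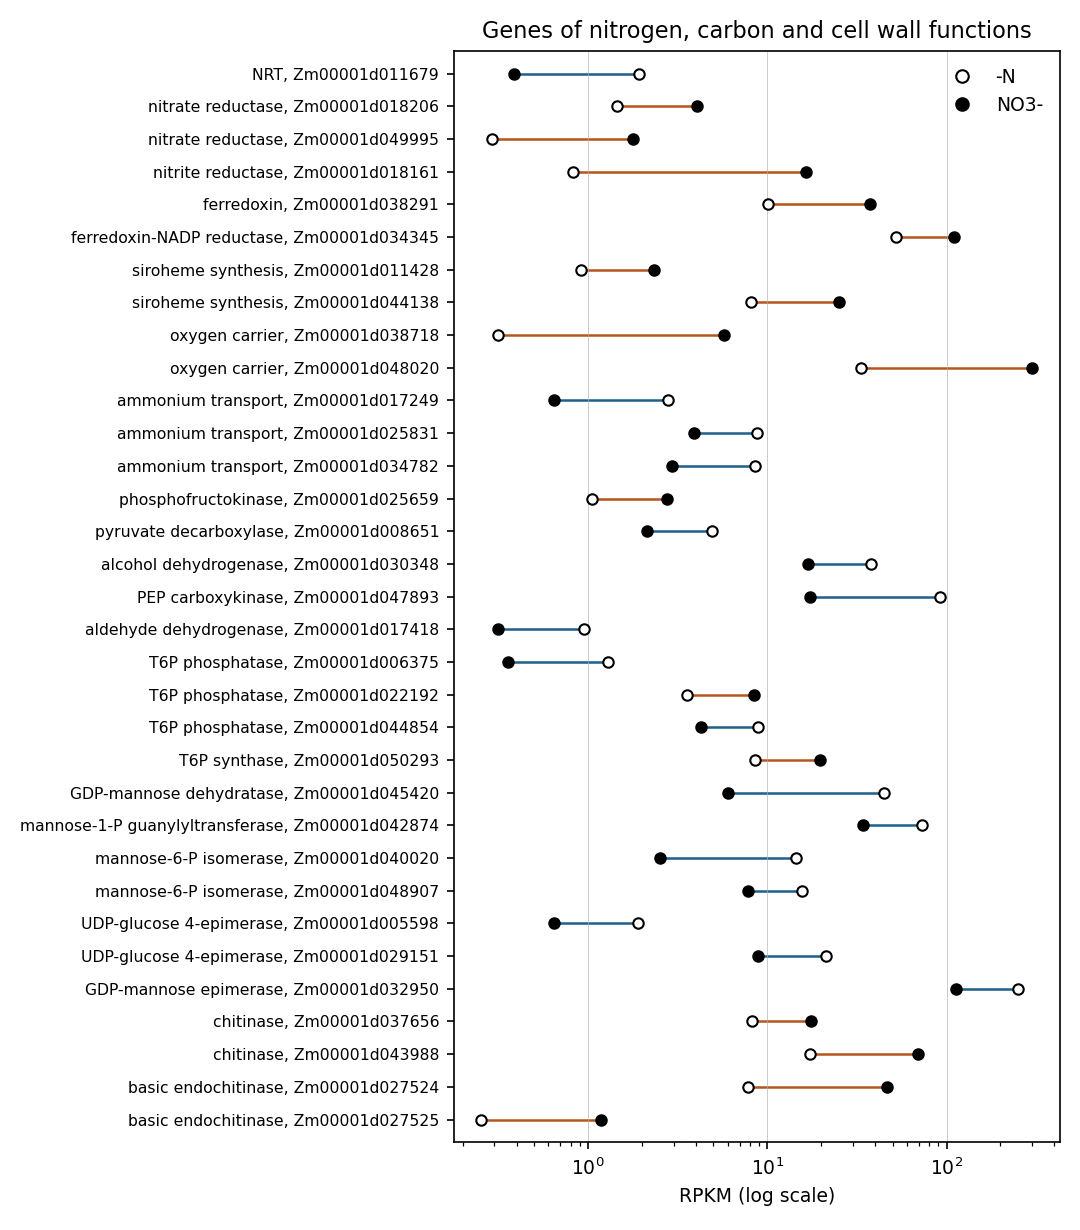
RPKM in -N (open circles) and NO3- (filled circles) on a log scale for the annotated genes of nitrate reduction, electron supply, siroheme synthesis, oxygen carriers, ammonium transport, carbon metabolism, trehalose phosphate, nucleotide sugars and chitinases. Lines in the direction of NO3- are brown and lines in the direction of -N are blue, and nitrite reductase (0.820 to 16.3) has the longest line.

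With an RPKM of at least 10 in one condition there were 12079 members, 261 higher and 149 lower. The largest finite ratios among them mostly belonged to genes without an annotation. Annotation was rare among all members too, with a KEGG entry for 175 of 21238. Zm00001d048644 on chromosome 4 had 0.0839 RPKM in -N and 11.1 in NO3-, Zm00001d045843 on chromosome 9 had 0.124 and 12.5, and Zm00001d045022 on the same chromosome 0.217 and 15.3. Zm00001d019497 on chromosome 7 had 0.423 and 29.0. The next, Zm00001d052585 on chromosome 4, carries the GO term extracellular region and stood at 1.53 and 46.7. All 5 were under 2 RPKM in -N. The remaining ones of the 10 were nitrite reductase, the miRNA gene zma-MIR159f (0.566 and 11.8) and 3 genes of the ENSRNA series, the identifiers that Ensembl gives to non-coding RNA genes. For 2 of the latter, the -N value was under 0.01 and a ratio carries no meaning.

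Among the genes with the lowest ratios at the same minimum of 10 RPKM, several were abundant without nitrogen. Catalase Zm00001d027511 on chromosome 1 had 11.0 RPKM in -N and 0.675 in NO3-, 16.4-fold lower. Zm00001d041984, Zm00001d041985 and Zm00001d041987, consecutive members on chromosome 3 between 146589411 and 146670457 without an annotation, had 131, 39.6 and 21.2 RPKM in -N and 17.6, 3.54 and 2.56 in NO3-. Peroxidase Zm00001d022283 stood at 62.7 and 6.84. The unannotated genes Zm00001d052527 on chromosome 4 (65.2 and 7.36) and Zm00001d034414 on chromosome 1 (46.8 and 5.63) were 8.86-fold and 8.31-fold lower. Zm00001d031823 had 11.9 and 1.38, although its locus overlaps that of another gene. The lowest finite ratio at this minimum was that of the non-coding gene ENSRNA049467581 on chromosome 2, with 89.9 and 2.03, also at an overlapping locus.

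The 3 most abundant genes were the same in both conditions. They were the ENSRNA genes ENSRNA049478226, ENSRNA049478207 and ENSRNA049478221 on chromosome 6, at 19358, 14433 and 9282 RPKM in -N and 27056, 22597 and 16970 in NO3-. These 3 were also the largest absolute gains of all members, although each stayed within 2-fold. Among the Zm00001d genes, Zm00001d033850 stood at 4804 and 4696, and Zm00001d023994 on chromosome 10 at 5898 and 2945, just past the 2-fold limit. Zm00001d040508 (4677 and 3140) and Zm00001d047117 (1930 and 1396) were among the 5 largest absolute falls while within 2-fold, and Zm00001d041173 (1151 and 512) was 2.25-fold lower. The summed RPKM of chromosome 6, which carries the abundant ENSRNA genes, was 124099 in -N and 149261 in NO3-.

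In carbon metabolism, annotated genes of organic acid use and fermentation were lower with nitrate. Phosphoenolpyruvate carboxykinase (Zm00001d047893), which opens the way from organic acids to sugars, had 91.7 RPKM in -N and 17.4 in NO3-. Alcohol dehydrogenase Zm00001d030348 and pyruvate decarboxylase Zm00001d008651, both enzymes of ethanol fermentation, had 37.7 and 4.90 in -N against 16.9 and 2.14 in NO3-. Phosphofructokinase Zm00001d025659, an early step of glycolysis, was the exception with 1.06 and 2.75, and its locus overlaps another gene. Trehalose 6-phosphate is a sugar signal of plants, and its genes were split. The synthase Zm00001d050293 had 8.57 and 19.7. Of the 3 phosphatases that the study selected, Zm00001d022192 was higher (3.59 and 8.42), and Zm00001d044854 (8.88 and 4.24) and Zm00001d006375 (1.29 and 0.359) were lower. SnRK1 is a kinase that responds to low energy. Both selected genes with the KEGG entry for catalytic subunits of the AMPK/SnRK1 kind were lower, with Zm00001d038048 at 47.1 and 18.5. The gene with the beta subunit entry, Zm00001d010662, was higher at 2.39 and 5.09. Whether these are SnRK1 genes was not examined beyond the entry.

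All 7 annotated genes of nucleotide sugar synthesis, which makes the building blocks of wall polysaccharides and of ascorbate, were over 2-fold lower, against 2.54% of all members, and their summed RPKM was 421 in -N and 173 in NO3-. Like the other KEGG genes, of which 92 of 175 members were lower, they were picked by the study for passing 2-fold. GDP-mannose 3,5-epimerase Zm00001d032950, a step shared by wall sugars and ascorbate, was the most abundant with 251 and 113. Mannose-1-phosphate guanylyltransferase Zm00001d042874 had 72.7 and 34.1. The 2 mannose-6-phosphate isomerases differed in ratio, since Zm00001d040020 went from 14.4 in -N to 2.52 in NO3- and Zm00001d048907 from 15.7 to 7.82. Of the UDP-glucose 4-epimerases, which make UDP-galactose, Zm00001d029151 had 21.3 and 8.93 and Zm00001d005598 had 1.90 and 0.648. The lowest ratio of the group was that of Zm00001d045420 (chromosome 9, 21559799 to 21560914), a GDP-mannose 4,6-dehydratase that the study calls root cap-specific protein, with 44.7 and 6.04.

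Root cap markers went both ways. Of the 3 markers the study names, Zm00001d045420 and bearskin 2 (Zm00001d003583, 1.77 and 0.207), a NAC factor of root cap maturation, were lower, and SOMBRERO (Zm00001d016119, 1.17 and 4.77), another NAC factor of the cap, was higher. Their summed RPKM was 47.7 in -N and 11.0 in NO3-, and none of the 3 was at 0. Most of this sum was Zm00001d045420, itself one of the nucleotide sugar genes, and the other 2 markers summed to 2.94 in -N and 4.97 in NO3-. Of the 2 root hair genes, roothairless6 (Zm00001d030121) had 7.90 and 2.39, and ROOT HAIR DEFECTIVE 3 homolog 2 (Zm00001d052961) 0.259 and 0.698, under the limit for members. All 5 were picked by the study among genes that responded in these libraries. Whether the share of root cap or root hair cells had a part in the wall-related differences was not tested.

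The wall genes that the study had selected went both ways. The 9 genes of the KEGG wall enzyme list comprised 7 higher and 2 lower ones, against 5.23% higher and 2.54% lower of all members. Of the 175 KEGG genes, 83 were higher. All were picked by the study for passing 2-fold, so the counts describe its list. Among the 5 endoglucanases, enzymes that cleave glucan chains, 4 were higher, with Zm00001d010446 at 1.90 in -N and 6.13 in NO3- and Zm00001d008952 at 0.102 and 1.07, while Zm00001d026605 had 6.12 and 2.90. Pectinesterase Zm00001d012766 (4.12 and 8.68) and pectate lyase Zm00001d025067 (1.65 and 3.82), which act on pectin, were higher, and a galacturonosyltransferase of pectin synthesis, Zm00001d022428, was lower (8.71 and 3.93). On the lower side stood the 3 fucosyltransferase genes, which decorate wall polysaccharides in the Golgi, with a summed RPKM of 8.89 and 2.85, and 3 xyloglucan endotransglucosylases, which cut and rejoin xyloglucan. The most abundant of these, Zm00001d053320, had 33.3 in -N and 14.5 in NO3-. A further endotransglucosylase of the TCH4 type, Zm00001d009309, was higher with 5.75 and 12.8. The 5 genes of plant-type cell wall organization were lower with a median log2 ratio of -2.47, and of these Zm00001d032884 was the most abundant, with 13.4 and 4.63. Of the 6 genes of the GO term polysaccharide binding, 3 reached the limit for members, and all 3 were higher, with Zm00001d008488 at 15.7 and 33.2. The study listed each GO term used here for genes of the same direction with nitrate. The direction of their genes was therefore set by that choice.

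All 4 chitinases of the study's selected genes were over 2-fold higher with nitrate, against 5.23% of all members and 83 of the 175 KEGG genes. Zm00001d043988 had 17.3 RPKM in -N and 68.9 in NO3-, Zm00001d027524 had 7.82 and 46.7, and Zm00001d037656 had 8.22 and 17.6. Zm00001d027525 begins under 2 kb beyond the end of Zm00001d027524 on chromosome 1 and stood at 0.254 and 1.19. Chitinases cleave the chitin of fungal walls and belong to the defence proteins of plants.

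The largest annotated family was that of the class III peroxidases, secreted enzymes that use hydrogen peroxide to cross-link or loosen the wall. Of its 27 genes, 21 were over 2-fold lower with nitrate and 6 were higher, against 2.54% lower and 5.23% higher of all members. They were picked by the study on this comparison, so the counts describe its list. The 21 lower genes had a median RPKM of 12.1 in -N and 3.17 in NO3- and a summed RPKM of 1342 and 565. Zm00001d040364 on chromosome 3 carried most of this, with 890 and 425. Without it, the summed RPKM of the other 26 genes was 505 in -N and 307 in NO3-. Next in level was Zm00001d038598 on chromosome 6, with 137 and 55.4. The lowest ratios were found at low levels, in Zm00001d028348 (3.67 and 0.282) and Zm00001d026357 (1.59 and 0.148).

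The 6 higher peroxidases lay on 5 chromosomes. Zm00001d002898 on chromosome 2 had 25.6 RPKM in -N and 92.4 in NO3-, Zm00001d042022 on chromosome 3 had 7.62 and 29.4, and Zm00001d032854 on chromosome 1 had 1.98 and 7.68. The other three, Zm00001d007161, Zm00001d020808 and Zm00001d046184, ended between 10.7 and 14.3 RPKM in NO3-, from levels between 4.71 and 6.74 in -N. The levels of higher and lower peroxidases overlapped. Both directions occurred on 4 chromosomes, while 1 chromosome held only higher and 4 held only lower ones.

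**Figure D4:**
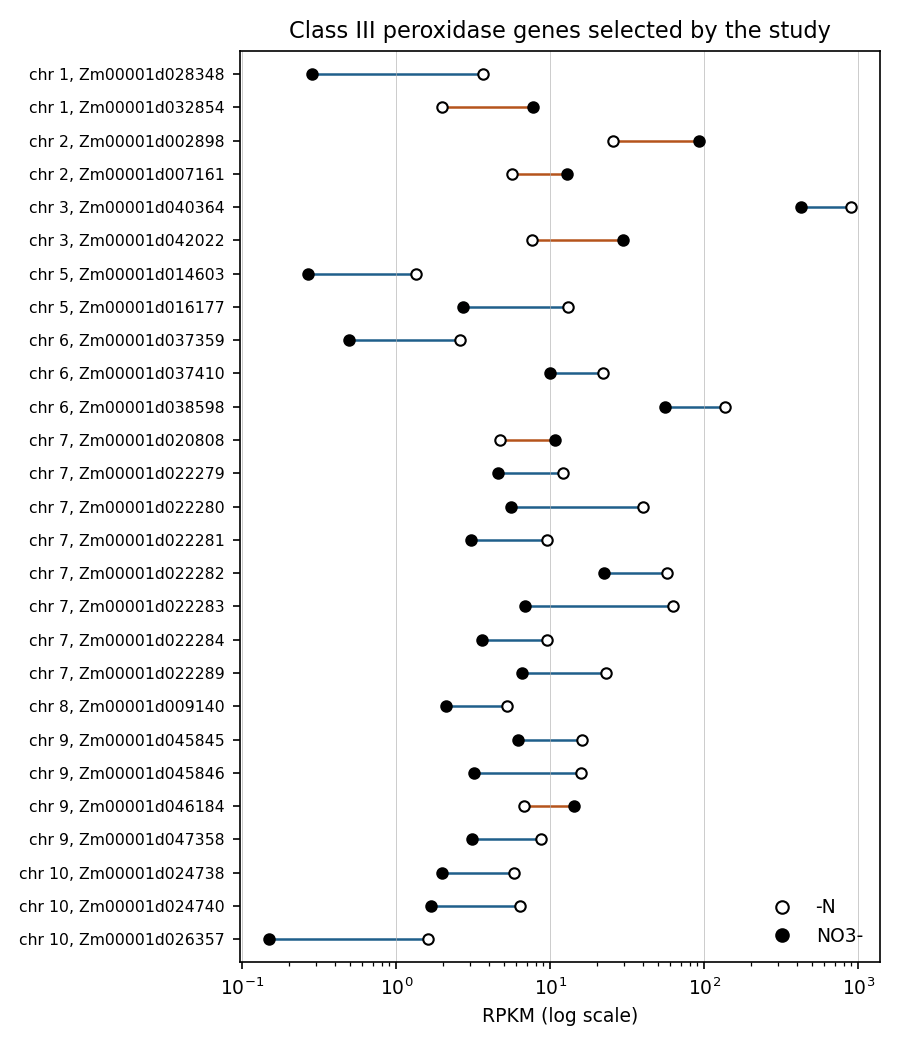
RPKM in -N (open circles) and NO3- (filled circles), on a log scale, of the 27 class III peroxidase genes in the study's annotation, ordered by chromosome. Blue lines mark the 21 lower genes and brown lines the 6 higher ones, with Zm00001d040364 (890 and 425) at the highest level.

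Several of the lower peroxidases sat side by side. Between 174342434 and 174598577 on chromosome 7, 256 kb, 9 members are found, and 8 of them were over 2-fold lower with nitrate. Of these, 7 are in the KEGG list of class III peroxidases, and Zm00001d022290 carries the GO term peroxidase activity. Zm00001d022283 had the lowest ratio, from 62.7 in -N to 6.84 in NO3-, followed by Zm00001d022280, from 39.7 to 5.50. Zm00001d022282, similar to the former in -N with 57.5, kept 22.3 in NO3-. The ninth member, Zm00001d022286, which has no annotation here, lies among them and stood at 31.0 and 29.3. Summed over the 8 genes, RPKM was 216 and 53.1. Tandem copies can share reads, and the similarity of these sequences was not examined, so their single values are less certain than their sum.

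**Figure D5:**
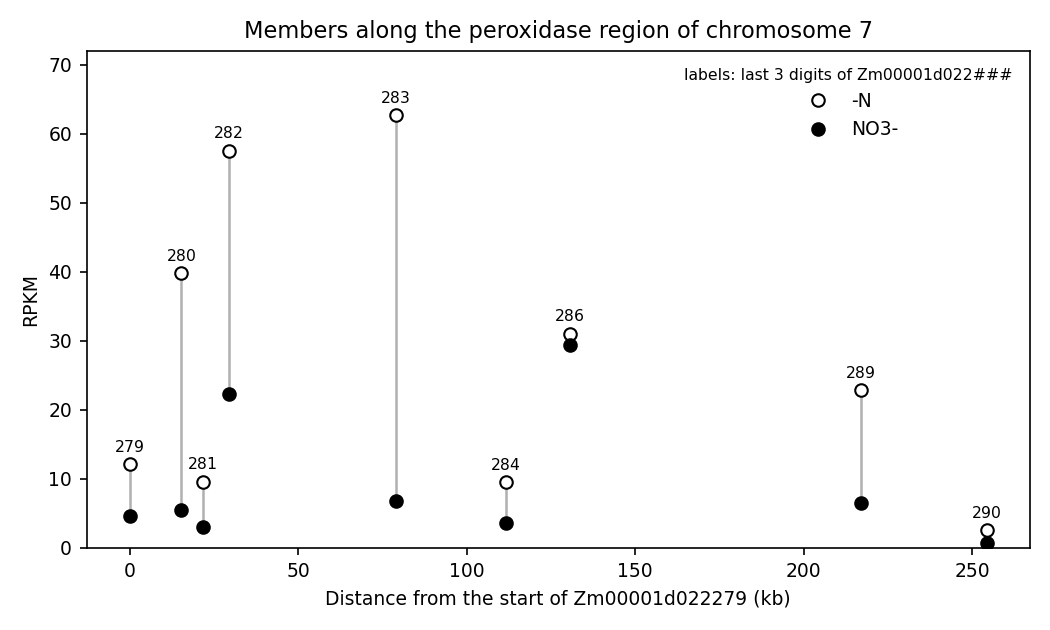
RPKM of the 9 members in the peroxidase region of chromosome 7 in -N (open circles) and NO3- (filled circles), against the distance in kb from the start of Zm00001d022279. The 8 peroxidases are lower in NO3-, and Zm00001d022286 at 131 kb stays near 30 RPKM in both conditions (31.0 and 29.3).

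Other redox genes, and those of the lignin path, went both ways among the genes that the study selected for passing 2-fold. Besides catalase, the respiratory burst oxidase Zm00001d007430, which makes superoxide at the plasma membrane, was lower, with 3.56 and 0.877. Monodehydroascorbate reductase Zm00001d024633, which regenerates ascorbate, was at 160 in -N and 445 in NO3-, and a second gene of this enzyme, Zm00001d017786, at 1.95 and 3.94. Ascorbate peroxidase Zm00001d025047 had 7.62 and 15.8. Of the 4 glutathione S-transferases that the study selected, 3 were lower and 1 was higher, against 2.54% and 5.23% of all members. These enzymes attach glutathione to toxic compounds. Both directions met within 1 stretch of chromosome 1, where Zm00001d029707 had 5.49 in -N and 1.56 in NO3- and Zm00001d029708 had 1.38 and 5.08. In the phenylpropanoid path to lignin, phenylalanine ammonia-lyase Zm00001d017279 (6.61 and 2.71) and both cinnamoyl-CoA reductases were lower, among them Zm00001d051938 with 6.40 and 1.01, while cinnamyl-alcohol dehydrogenase Zm00001d004443 (0.974 and 2.80) and a hydroxycinnamoyl transferase, Zm00001d037073 (0.503 and 1.77), were higher.

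The hormone genes described here were those the study selected for passing 2-fold. Their highest value was 14.9 RPKM in NO3-, for the type B response regulator Zm00001d042463 of cytokinin signalling, which had 7.33 in -N. Both strigolactone synthesis genes were lower, CCD7 (Zm00001d002736) with 2.85 in -N and 0.976 in NO3- and CCD8 (Zm00001d043442) with 7.94 and 1.98. Their GO term was listed by the study for genes lower with nitrate. Strigolactones are root hormones that plants make in larger amounts when nutrients are short. In auxin response, the GH3 and Aux/IAA families each had 1 higher and 1 lower gene, and the SAUR gene Zm00001d026262 was lower (7.74 and 2.48). GH3, an auxin-conjugating enzyme, had 2.86 and 0.579 for Zm00001d007395 and 0.480 and 1.46 for Zm00001d010697, and the Aux/IAA repressors had 11.5 and 3.98 for Zm00001d034463 and 2.40 and 5.63 for Zm00001d045203. Both cytokinin dehydrogenases, which degrade cytokinin, were higher, with Zm00001d032664 at 3.30 and 8.21. The JAZ repressors of jasmonate signalling, Zm00001d005813 and Zm00001d027900, stood at 0.322 and 0.627 in -N and at 1.58 and 2.24 in NO3-. The protein phosphatase 2C gene Zm00001d028574 of abscisic acid signalling stood at 0.400 and 1.37. ACC synthase Zm00001d039487, the entry to ethylene synthesis, was lower with 10.2 and 3.99.

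Of the 6 calcium and kinase signalling genes that the study selected, 5 were higher, against 5.23% of all members and 83 of the 175 KEGG genes, with calmodulin Zm00001d048913 from 0.333 in -N to 2.40 in NO3- and the calmodulin-like gene Zm00001d014271 from 1.29 to 4.41. The calcium-dependent protein kinase Zm00001d026139 (2.28 and 4.97) and the kinase kinase Zm00001d052066 of the MAP kinase cascade (0.878 and 2.74) were also higher, and the exception was the respiratory burst oxidase. Among the amino acid enzymes, methionine synthase Zm00001d013644 (325 and 155) and glycine dehydrogenase Zm00001d023437 (92.2 and 45.6) were the abundant ones and were lower, as were glutamate decarboxylase Zm00001d031749 (20.8 and 9.13) and alanine transaminase Zm00001d006875 (10.6 and 4.74). Tyrosine aminotransferase Zm00001d048736 (0.495 and 1.51) and a branched-chain transaminase, Zm00001d028303 (2.27 and 4.88), were higher. For polyamines, ornithine decarboxylase Zm00001d021321 was lower (1.51 and 0.264) and spermidine synthase Zm00001d046112 higher (11.1 and 25.2). Both small heat shock genes that the study selected were higher, with Zm00001d028557 at 12.9 and 26.8. All genes of these lists were picked by the study for passing 2-fold, a limit that 5.23% of all members passed upward and 2.54% downward.

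Of the 17 genes named by the study, 15 were members, 3 higher, 11 lower and MEP within 2-fold. Over all members, 5.23% were higher and 2.54% lower. Apart from MEP, the study picked the named genes among those responding to nitrate, so the counts describe its choice. The actin depolymerizing factors ADF13 (Zm00001d017516, 18.3 in -N and 4.27 in NO3-) and ADF7 (Zm00001d051388, 18.3 and 6.61), which sever actin filaments, were at the same level without nitrogen. Other lower genes were scar2 (Zm00001d028803, 1.04 and 0.436), cyclops (Zm00001d035962, 5.94 and 2.73), scarecrow-like protein 26 (Zm00001d053163, 2.24 and 0.908) and RGP2 (Zm00001d009964, 7.73 and 3.78). AIR12 (Zm00001d031556), a gene first known as auxin-induced in roots, was higher with 0.539 and 2.90. Apyrase 1 (Zm00001d049008) stood at 0.203 and 0.744, under the limit for members.

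The 10 chromosomes had similar shares past 2-fold. The share of members over 2-fold higher ran from 4.72% on chromosome 4 to 5.99% on chromosome 3, and the share over 2-fold lower from 2.22% on chromosome 5 to 2.87% on chromosome 3. The median log2 ratio of a chromosome lay between 0.03 and 0.06. Neighbouring members were also compared. Restricted to the 18991 members whose locus overlaps no other gene, the next member along the chromosome was also higher for 77 of 978 higher genes (7.87%, against 5.16% of all these members), and also lower for 35 of 463 lower genes (7.56%, against 2.44%). The next member was of the opposite direction for 20 of the higher (2.04%, against 2.44%) and 30 of the lower genes (6.48%, against 5.16%). Only the following member in coordinate order was counted, so these shares do not cover the preceding member of a gene. Whether reads shared between tandem copies had a part in these counts was not tested.

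Runs of at least 3 consecutive members past 2-fold in the same direction numbered 15, 8 higher and 7 lower, and held 49 genes. In 10 of them, 5 higher and 5 lower, no locus overlapped that of another gene. The longest was the peroxidase stretch with 6 genes in direct sequence. On chromosome 6 (166840009 to 166868629), Zm00001d038910 had 12.9 in -N and 27.3 in NO3-, Zm00001d038911 had 1.19 and 8.21 and Zm00001d038913 had 0.186 and 1.98, next to an ENSRNA gene listed at 0 in -N. A run of abundant genes on chromosome 9 (20402633 to 20481751) comprised Zm00001d045390, Zm00001d045391 and Zm00001d045392, with 137, 149 and 210 RPKM in -N and 282, 360 and 453 in NO3-. Another on the same chromosome, between 43387648 and 43459777, included the peroxidases Zm00001d045845 (15.9 and 6.19) and Zm00001d045846 (15.7 and 3.17). On chromosome 6 (123804940 to 123968604), Zm00001d037383 and Zm00001d037384, both of the GO term glucosyltransferase activity, had 9.77 and 54.3 in -N and 1.47 and 25.9 in NO3-. In the other 5 of the 15 runs a locus overlapped that of another gene. A higher and a lower run of these, with 3 genes each, shared a single locus entry on chromosome 10, so their order there has no meaning.

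The length of the locus went with the ratio. With the members split into 3 equal classes by locus length, 12.4% were over 2-fold higher and 5.10% lower in the shortest class (up to 2708 bp), compared with 1.99% and 1.58% in the middle class and 1.31% and 0.933% in the longest. Short loci also had a lower median RPKM in -N, 5.68 against 14.3 and 15.1, and the difference by length was also seen within classes of level. Between 10 and 50 RPKM, 8.82% of the short, 1.51% of the middle and 0.628% of the long loci were past 2-fold, and over 100 RPKM 3.73%, 0.803% and 0 of 334 long loci were. The identifier classes differed likewise. Of the 20842 Zm00001d genes 7.01% were past 2-fold, of the 367 ENSRNA genes 45.8%, and of the 29 miRNA genes 75.9%.

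Values of the short non-coding genes are uncertain, because the libraries were made from poly(A) RNA and many of their loci overlap other genes. This held for 27 of the 29 miRNA genes, and 11 of the 29 were listed at 0 in one condition. In the MIR396 family, zma-MIR396a had 2.03 in -N and 7.11 in NO3- and zma-MIR396e 7.77 and 3.81. The locus entry of zma-MIR396e is also that of ENSRNA049456199, which went the other way with 0.00144 and 11.95. The entries zma-MIR396b (1.69 and 0) and zma-MIR396h (0 and 8.83) carry 1 and the same locus on chromosome 9, so their values cannot be separated. The most abundant, zma-MIR171f, was within 2-fold at 133 and 74.3.

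Of the 142 members listed at 0 in one condition, 102 were outside the Zm00001d series, 69 overlapped another gene, and the median locus was 229 bp long. The highest was ENSRNA049478180 on chromosome 6, with 3591 RPKM in -N and listed at 0 in NO3-. It ends at 12824642, and ENSRNA049478221, with 9282 RPKM in -N and 16970 in NO3-, starts close by at 12824696. Whether reads were assigned differently between these adjoining entries was not tested. Of the 38 that reached at least 10 RPKM in the other condition, 22 were listed at 0 in -N and 16 in NO3-. The highest Zm00001d gene among them was Zm00001d028956 on chromosome 1, at 27.5 in -N and listed at 0 in NO3-, and its locus overlaps that of another gene.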

How the data were processed

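Root apices of B73 seedlings in -N and NO3- (3 libraries each of 9) were used. According to the labels and methods, single-end reads were handled with CASAVA 1.8, trimmed with Trimmomatic 0.33, mapped to B73 RefGen_v4 (AGPv4) with TopHat2 2.0.13 and quantified with Cuffdiff of Cufflinks 2.2.1, with multi-read correction and quartile normalization. The authors deposited RPKM values, 1 per gene and condition. The labels name a stranded kit, the methods do not say whether strand was used, and reads of overlapping genes (10.6% of members) may not be separated. File starts count from 0 (end minus start was a multiple of 3 for 56.5% of 14937 short non-overlapping genes), and starts are given here 1-based.

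Ratios were taken without a pseudocount, with an RPKM minimum of 1 and a limit of 2-fold (Python 3.11.15, pandas 2.3.3, numpy 2.4.6). Genes listed at 0 in one condition counted as past 2-fold. With 1 value per condition no test was run. The methods give the range of reads per library, but the reads behind each value are unknown. The steps were tested on simulated data. Members and gene lists were chosen with earlier results of these data known. Named genes were those the study names, the members of KEGG nitrogen metabolism and of GO terms with at most 4 genes, the 10 highest and 10 lowest finite ratios at an RPKM of at least 10, the 5 highest genes listed at 0 per condition, the 5 highest levels, rises and falls, the members of the 5 longest runs (13 runs tied at 3 genes, and the first 3 in table order were taken), and up to 4 genes per list. The other genes named, such as the further runs, wall and redox genes and miRNA genes, were chosen after their values were seen. Not all genes under the rule are printed. Lists by keyword could not be run, because the RefSeq table at hand matched 29 miRNA genes and 0 Zm00001d identifiers. Alternatives were other minimums, pseudocounts, rescalings, fold limits and gene sets.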

Additional observations from a re-analysis of the deposited data

How the results depend on the processing

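No paired analysis was possible because the table gives 1 pooled value per condition, and for the same reason leaving out a replicate could not be run. The RPKM minimum moved the counts most. Higher and lower genes numbered 2877 and 1383 (15.8% of members, 61 runs) with a minimum of 0.1, 444 and 252 (4.44%, 5 runs) with 5, and 4737 and 2740 (23.7%, 160 runs) without one. A minimum of 10, added after seeing the data, gave 261 and 149 (3.39%, 3 runs). A pseudocount of 1 gave 532 and 309 (3.96%, 8 runs). With a limit of 1.5-fold there were 2486 and 1151 (17.1%, 68 runs), and with 4-fold 298 and 165 (2.18%, 3 runs). The cause was not tested beyond the construction of each setting. The share of higher genes among those past the limit stayed between 63.3% and 68.4% in all of these. A pseudocount of 0.1, the 3 rescalings, Zm00001d genes only, and loci without overlap (added after seeing the data) kept each count within 1.5 times. Over all genes past 2-fold, the summed RPKM in NO3- minus that in -N was -4751, and it reversed to 1792 without ENSRNA049478180 and Zm00001d023994 (added after seeing the data). Of the 118 named genes with a finite ratio past 2-fold, none changed sign, all 118 stayed past 2-fold under each rescaling and the pseudocount of 0.1, and 83 did under a pseudocount of 1.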
